A study of Mus musculus with 6 samples.

Results

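The 40 genes described here encode integrins, the transmembrane receptors that hold a cell to its matrix, and the cytoplasmic proteins of focal adhesions that tie them to actin. They are rows whose symbol is on a list of adhesion genes. No measured value enters that rule, although the list was drawn up with earlier results of these data known. All 40 were found among the 27502 genes of the deposited tables. Of them, 15 were integrin subunits (11 alpha and 4 beta) and 25 were cytoplasmic proteins. RNA came from vascular smooth muscle cells (VSMCs), the contractile cells of the vessel wall, cultured from mouse aorta. In 3 samples the cells had been given small interfering RNA against Ezh2 (siEzh2), and 3 samples were the control for that knockdown (Control), all at 48 hours. The product of Ezh2 is the histone H3 methyltransferase of the Polycomb repressive complex that silences genes. The strain, sex and age of the mice, the siRNA sequences and the treatment of the Control cells were not stated in the sources used here. The labels do not say that replicates were separate cultures or animals, so p-values reflect the spread among these 6 samples alone, and that spread may be technical.

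An integrin is a pair of 1 alpha and 1 beta chain, and the pair decides which matrix protein is bound. Inside the cell, talin and kindlin bind the beta tail and switch the receptor on, vinculin strengthens the link from talin to actin, and the complex of Ilk with a Lims (PINCH) protein and parvin adds another link. Kinase scaffolds such as focal adhesion kinase and paxillin signal from the site, while zyxin and its LIM-domain relatives sit on the stress fibres that pull on it. In arterial smooth muscle these sites, also called dense plaques, carry contractile force to the matrix of the wall.

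Ezh2 itself had 1.20, 1.09 and 1.05 FPKM (fragments scaled by exon length and library size) in siEzh2 samples, against 3.41, 3.59 and 3.88 FPKM in Control samples. It fell by 1.13 on the log2(FPKM + 1) scale (SE 0.0513, adjusted p = 5.15e-05), the scale of every log2 value given here. Values after ± are SDs over the 3 samples of a group. The log2 scale understates changes of genes with low FPKM. The test was limma over the 11869 genes that averaged 1 FPKM or more in either group, with Benjamini-Hochberg adjustment and a threshold of 0.05. Recovered library totals were 16080005 to 17553743 reads in siEzh2 samples and 18248440 to 18753124 reads in Control samples.

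The integrins and the cytoplasmic proteins gave different counts. Of 12 tested integrin subunits, 5 rose, 3 fell and 4 did not pass, with a median log2 difference of 0.06. Of 23 tested cytoplasmic proteins, 1 rose, 17 fell and 5 did not pass, with a median of −0.23. Of all tested genes 46.9% passed the test, 24.1% higher and 22.7% lower in siEzh2 samples, with a median of 0.01. The cytoplasmic share that fell, 73.9%, was above this background, while the integrin shares were 41.7% higher and 25% lower. With a minimum absolute log2 difference of 0.3 as well, 11.8% of all tested genes were higher and 10.4% lower. Under that rule 8 cytoplasmic proteins fell, 4 integrins rose and 3 integrins fell. No test of one class against the other was made. In bulk samples, fewer cells of a type and less RNA per cell cannot be told apart.

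Membership of the test needs a statement of its own, because a gene that passed the filter through 1 group had to differ. Itga1 and Ldb3 passed only through Control samples. Without Itga1, 5 of 11 tested integrins rose and 2 fell (median 0.06). Without Ldb3, 1 of 22 tested cytoplasmic proteins rose and 16 fell (median −0.23). Itga4, Itga7, Itgb8, Ilk and Synpo2 had a mean under 1 FPKM in both groups and were not tested.

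**Figure D1:**
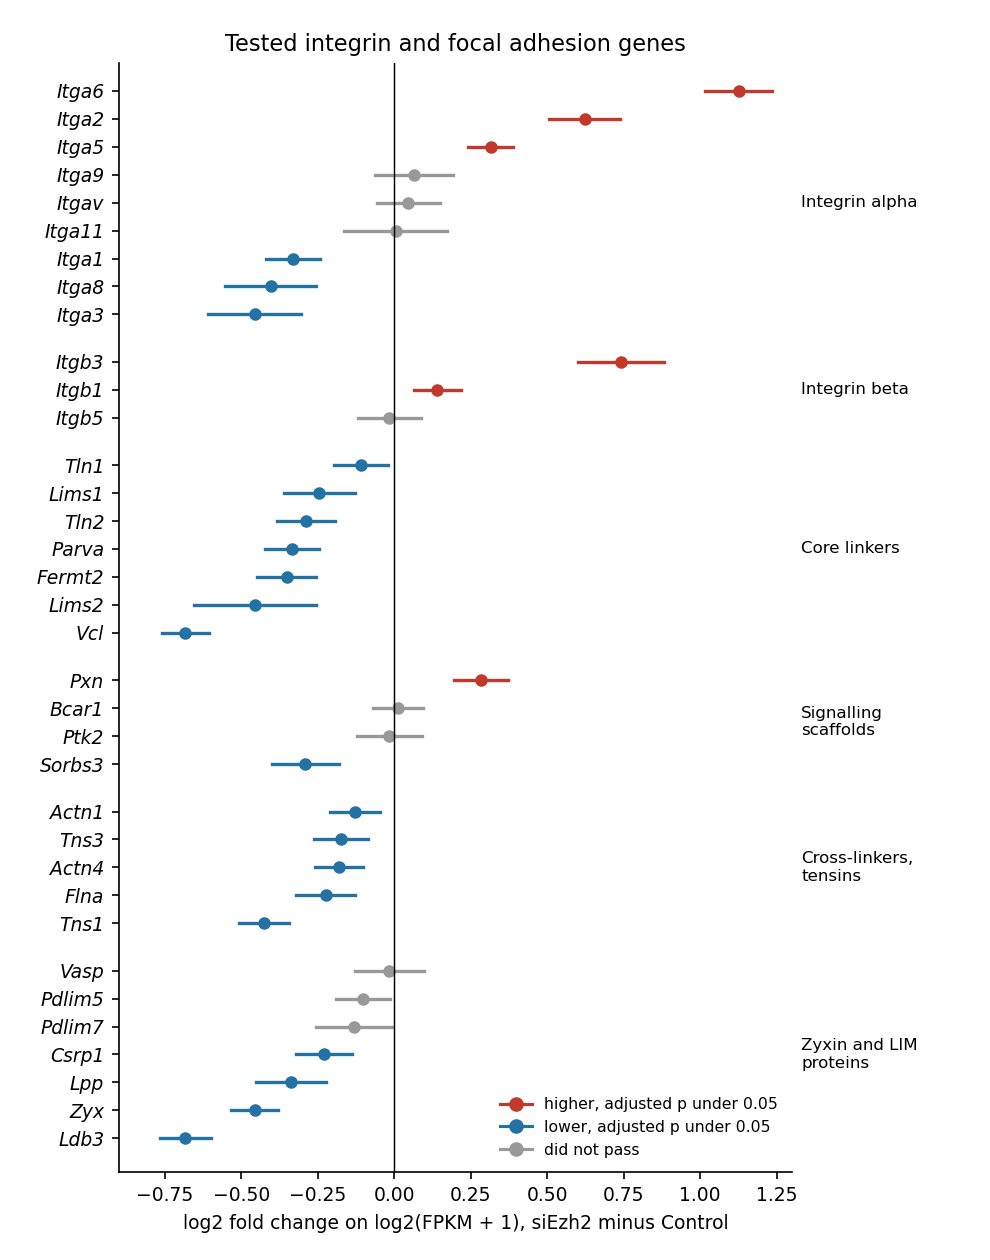
Log2 difference in FPKM + 1, siEzh2 minus Control, for the 35 tested members with 95% confidence intervals from limma, integrins and cytoplasmic proteins apart. Integrins lie on both sides of 0, from −0.46 for Itga3 to 1.13 for Itga6, while 1 cytoplasmic protein (Pxn) passed the test above 0 and 17 passed below it.

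Itga6 had the greatest rise of the members. Its alpha chain pairs with Itgb1 or Itgb4 to bind laminins, proteins of the basement membrane around smooth muscle cells. The gene lies on the plus strand of chromosome 2 from 71745616 to 71858416 (mm10). It had 6.36, 6.42 and 6.01 FPKM in siEzh2 samples, against 2.45, 2.35 and 2.19 FPKM in Control samples. All siEzh2 samples lay above all Control samples, and the means were 6.26 ± 0.224 and 2.33 ± 0.133 FPKM (SD, n = 3 each). The mean in siEzh2 samples was 2.69 times that in Control samples (log2 difference 1.13, SE 0.0451, adjusted p = 4.02e-05), on 2886 reads against 1168.

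Itga3, the other tested laminin-binding alpha chain, moved the opposite way. It had 4.80, 4.66 and 5.47 FPKM in siEzh2 samples, against 7.18, 7.55 and 6.86 FPKM in Control samples. The groups did not overlap, and Itga3 fell by 0.46 on the log2 scale (SE 0.0626, adjusted p = 0.00193). The ratio of Itga6 to Itga3 FPKM was 1.32, 1.38 and 1.10 in siEzh2 samples, against 0.341, 0.311 and 0.319 in Control samples. Itga6 therefore stood above Itga3 in each siEzh2 sample and below it in each Control sample. This pair and the next were set side by side after their values had been seen, so the ratios are descriptions. The third laminin-binding chain, Itga7, had 0.862 ± 0.0344 FPKM in siEzh2 samples and 0.689 ± 0.0260 FPKM in Control samples. Summed over these 3 chains, the level was 12.1 ± 0.236 FPKM in siEzh2 samples and 10.2 ± 0.411 FPKM in Control samples, or 6.42% and 6.38% of all alpha-chain FPKM.

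A pair of collagen receptors that lie side by side on the genome also moved apart. Itga2 and Itga1 both pair with Itgb1 to bind collagens, and both lie on the minus strand of chromosome 13, from 114833081 to 114932100 and from 114953096 to 115101964, with 20995 bp between them. Itga2 had 4.23, 4.12 and 4.44 FPKM in siEzh2 samples, against 2.56, 2.45 and 2.24 FPKM in Control samples. It rose by 0.62 on the log2 scale (SE 0.0479, adjusted p = 0.000234). Itga1, the main collagen receptor of differentiated smooth muscle, had 0.592, 0.551 and 0.633 FPKM in siEzh2 samples, against 1.04, 1.005 and 0.964 FPKM in Control samples. It fell by 0.33 (SE 0.0365, adjusted p = 0.000864), on 562 reads against 1036, and 3.68% of its exon bases are shared with the gene model Gm49395. Neither gene's groups overlapped. The ratio of Itga2 to Itga1 was 7.21 ± 0.240 in siEzh2 samples and 2.41 ± 0.0743 in Control samples (SD, n = 3 each). Itga1 passed the filter only through Control samples, so its limma p-value does not stand free of that selection. Without Control 1, Itga1 fell below the filter and could not be tested. Itga11, a further collagen receptor, had 1.301 ± 0.212 FPKM in siEzh2 samples and 1.29 ± 0.0634 FPKM in Control samples, with a log2 difference between −0.16 and 0.17 (95% confidence interval).

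The alpha chains that recognise the Arg-Gly-Asp motif of fibronectin and vitronectin made up most of the alpha-chain RNA. Itga5, the fibronectin receptor, was the most abundant alpha chain, at 124.1, 123.6 and 125.1 FPKM in siEzh2 samples, against 100.2, 99.3 and 99.3 FPKM in Control samples. It rose by 0.32 (SE 0.0304, adjusted p = 0.000532), with no overlap between groups. Its share of the summed alpha-chain FPKM was 65.9% ± 0.589 in siEzh2 samples and 62.2% ± 0.271 in Control samples. Itgav, which pairs with several beta chains, had 40.8 ± 1.70 FPKM in siEzh2 samples and 39.5 ± 0.760 FPKM in Control samples. Its difference did not pass the test (log2 difference 0.05, 95% confidence interval −0.06 to 0.15, adjusted p = 0.408). Itga8, a chain of contractile smooth muscle and other mesenchymal cells, had 2.03, 2.22 and 2.05 FPKM in siEzh2 samples, against 3.13, 2.80 and 3.40 FPKM in Control samples. It fell by 0.40 (SE 0.0613, adjusted p = 0.00285), again with no overlap, and 5.05% of its exon bases are shared with E030013I19Rik on the opposite strand.

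Itga9 and Itga4, related chains with ligands outside these classes, were also measured. Itga9 had 2.85 ± 0.210 FPKM in siEzh2 samples and 2.68 ± 0.129 FPKM in Control samples (log2 difference 0.06, 95% confidence interval −0.06 to 0.19). Itga4 had 0.242 ± 0.0800 FPKM in siEzh2 samples and 0.283 ± 0.0276 FPKM in Control samples and was not tested.

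**Figure D2:**
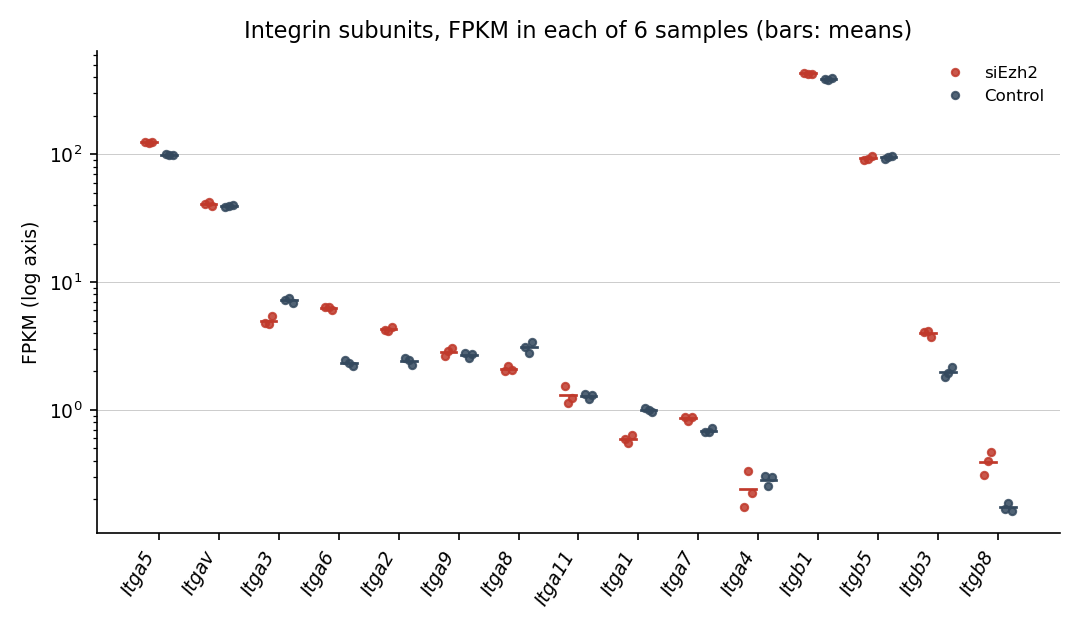
FPKM of the 15 integrin subunits in each sample on a log10 axis, siEzh2 beside Control, with the mean of each group. Itgb1, Itga5, Itgb5 and Itgav are the most abundant subunits in both groups. The 8 subunits that passed the test show no overlap between groups, and neither do Itga7 and Itgb8, which were not tested. Of all tested genes, 58.1% show no overlap in either direction.

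Among the 3 tested beta chains, Itgb3 had the largest log2 difference. It pairs with Itgav in smooth muscle and binds vitronectin, osteopontin and fibrinogen. The gene lies on the plus strand of chromosome 11 from 104608000 to 104670476. It had 4.07, 4.13 and 3.73 FPKM in siEzh2 samples, against 1.81, 1.96 and 2.16 FPKM in Control samples. The groups did not overlap, and the mean in siEzh2 samples was 2.01 times that in Control samples (log2 difference 0.74, SE 0.0575, adjusted p = 0.000243). Itgb3 was still a small part of the beta-chain RNA, at 0.754% ± 0.0397 of summed FPKM in siEzh2 samples and 0.407% ± 0.0328 in Control samples.

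Itgb1, the partner of most alpha chains here, supplied 81.4% of the summed beta-chain FPKM in siEzh2 samples and 80.1% in Control samples. It had 435.3, 428.4 and 423.8 FPKM in siEzh2 samples, against 389.8, 384.5 and 392.9 FPKM in Control samples. The rise was small, at 0.14 on the log2 scale (SE 0.0320, adjusted p = 0.0131). In the alternative limma fits the adjusted p of Itgb1 was 0.0485 at most. The groups did not overlap, which held for 58.1% of all tested genes in either direction. Itgb5, the other abundant beta chain, had 93.4 ± 3.61 FPKM in siEzh2 samples and 94.4 ± 2.51 FPKM in Control samples, and its interval ran from −0.12 to 0.09. Itgb8, known for activating latent TGF-beta together with Itgav, had 0.393 ± 0.0796 FPKM in siEzh2 samples and 0.172 ± 0.0140 FPKM in Control samples without overlap. It rests on 223 reads against 106 and was not tested with the filter on low values.

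Added together, the 15 subunits came to 715.5 ± 2.44 FPKM in siEzh2 samples and 645.8 ± 5.68 FPKM in Control samples (SD, n = 3 each), most of it from Itgb1 and Itga5. The 25 cytoplasmic proteins came to 1357 ± 11.5 FPKM in siEzh2 samples and 1600 ± 15.2 FPKM in Control samples. The siEzh2 sum was thus 110.8% of the Control sum for integrins and 84.8% for cytoplasmic proteins. Such sums are led by the most abundant members and say nothing of the rarer ones.

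**Figure D3:**
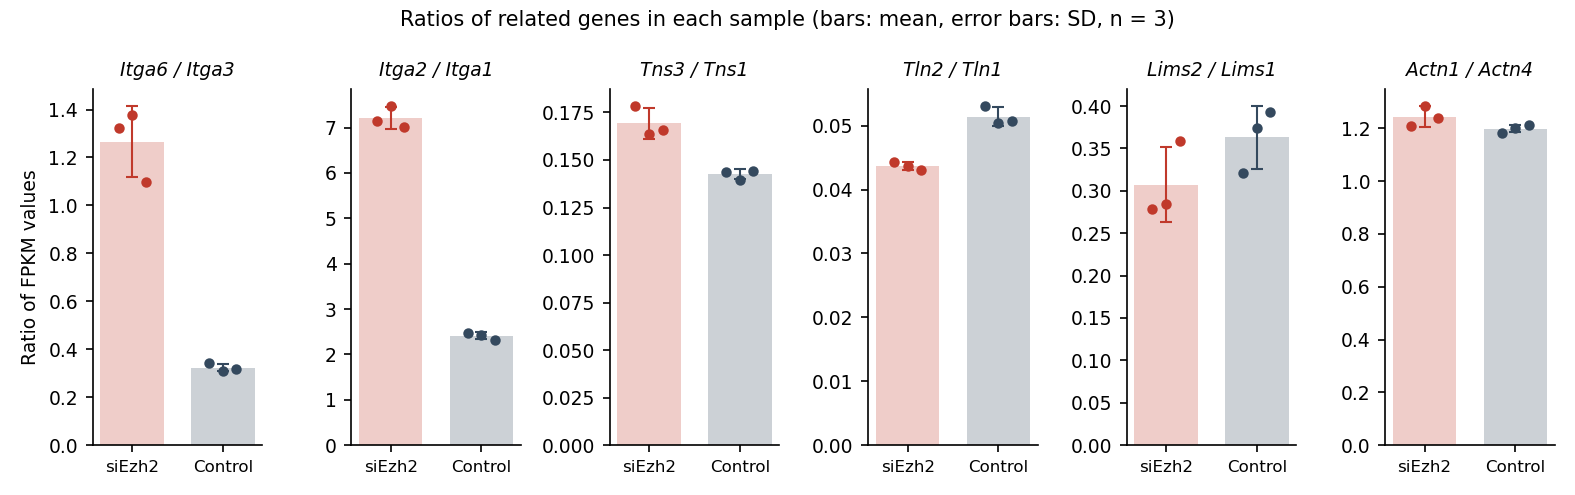
FPKM ratios of paired members in each sample (points), with the group mean (bars) and SD (error bars, n = 3), siEzh2 left of Control. Itga6 over Itga3 and Itga2 over Itga1 separate the groups, at 1.27 and 7.21 on average in siEzh2 samples and 0.324 and 2.41 in Control samples. Tns3 over Tns1 and Tln2 over Tln1 also separate them, at 0.169 and 0.0437 on average in siEzh2 samples and 0.143 and 0.0514 in Control samples. Lims2 over Lims1 and Actn1 over Actn4 overlap between groups.

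The linkers next to the receptor fell as a group: all 7 tested of the 8 core linkers were lower in siEzh2 samples (median log2 difference −0.33). Of all tested genes 22.7% were lower. The count was 6 in the 10 of 14 alternative settings that lost Tln1. Vcl, vinculin, fell most among them. It lies on the plus strand of chromosome 14 from 20929398 to 21033676 and had 39.7, 40.8 and 40 FPKM in siEzh2 samples, against 65.2, 65.6 and 64.5 FPKM in Control samples. The groups were far apart relative to their spread (log2 difference −0.68, SE 0.0316, adjusted p = 5.43e-05). Of the exon bases of Vcl, 25.5% are shared with Ap3m1 on the opposite strand, and the sources used here do not say whether reads were counted by strand.

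Fermt2, kindlin-2, which activates integrins together with talin, had 20.2, 19.1 and 19.6 FPKM in siEzh2 samples, against 25.7, 25.8 and 24.5 FPKM in Control samples. It fell by 0.35 (SE 0.0400, adjusted p = 0.000961). Parva, alpha-parvin, which joins Ilk to actin, had 26.6, 26.6 and 27.8 FPKM in siEzh2 samples, against 33.6, 35.0 and 34.1 FPKM in Control samples. It fell by 0.33 (SE 0.0364, adjusted p = 0.000834). Neither gene's groups overlapped. Lims2, the PINCH-2 adaptor of the same complex, had 8.94, 8.65 and 10.3 FPKM in siEzh2 samples, against 11.9, 13.6 and 13.9 FPKM in Control samples. It fell by 0.46 (SE 0.0828, adjusted p = 0.00570), with the widest standard error among the cytoplasmic proteins, and 6.14% of its exon bases are shared with Gpr17 on the opposite strand.

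The remaining linkers fell by less. Lims1, PINCH-1, had 30.4 ± 1.59 FPKM in siEzh2 samples and 36.2 ± 0.864 FPKM in Control samples (log2 difference −0.24, adjusted p = 0.00734). Tln1, the main talin, had 104 ± 2.89 FPKM in siEzh2 samples and 112 ± 1.53 FPKM in Control samples. Its fall of 0.11 passed narrowly (adjusted p = 0.0486) and was lost in 10 of 14 alternative settings, among them without any 1 of the 6 samples (adjusted p = 0.0563 to 0.136). Tln2, the less abundant talin, fell by 0.29 (adjusted p = 0.00191), to 4.55 ± 0.0745 FPKM in siEzh2 samples, against 5.78 ± 0.246 FPKM in Control samples. The ratio of Tln2 to Tln1 FPKM was 0.0437 ± 0.000596 in siEzh2 samples and 0.0514 ± 0.00148 in Control samples. Ilk, the pseudokinase at the centre of the parvin and PINCH complex, had 0.435 ± 0.0372 FPKM in siEzh2 samples and 0.381 ± 0.133 FPKM in Control samples. Its value is uncertain, because 89.7% of its exon bases are shared with genes on the opposite strand, 76.7% with Taf10 alone.

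The promoters of 31 of the 40 members are in the RefSeq table for GRCm38.p6, each 250 bases before to 50 bases after a start site. Itga6, Itga7, Itgb3, Lims2, Parva, Tln2, Ptk2, Pxn and Sorbs3 have none there. The integrins with the largest rises and the 1 cytoplasmic protein that rose were therefore not searched. Ilk, Synpo2, Itga4 and Itgb8 were searched although they were not tested. They were searched on both strands for the CArG box that binds serum response factor, taken as CC, then any 6 of A or T, then GG, and for GGAATG, the core of the TEAD site. The motifs were chosen after the members' values had been seen, because both factors are known regulators of adhesion and contractile genes. The motif counts are therefore descriptions, and a link of either factor to the differences was not tested. A CArG box was in 3 of 19 cytoplasmic members with a promoter (Vcl, Fermt2 and Ldb3) and in 0 of 12 integrins, against 1.52% of the 8671 tested genes that have one. GGAATG was in 4 of 19 cytoplasmic members (Actn4, Flna, Lpp and Vcl) and in 1 of 12 integrins (Itgb1), against 14.3% of the tested genes. Of all 32851 promoters in the table, 1.63% held a CArG box and 14.7% held GGAATG. A match is a run of letters, not a shown binding site, and no match says only that these letters are not in this window. 1 promoter with a CArG box for each of Vcl, Fermt2 and Ldb3 is printed 5′ to 3′ on the gene's strand, with matches to the 2 motifs in capitals. Other members without the box, Zyx and Tns1 among them, fell as well, and Ldb3 passed the filter on low values only through Control samples. Ldb3 has a second, overlapping promoter in the table that holds the same box and is not printed. The CArG box begins 227 bases before the start site in Vcl, 204 before it in Fermt2 and 109 before it in the printed promoter of Ldb3, and GGAATG begins 143 before it in Vcl. From the start site of the second Ldb3 promoter, the same box begins 35 bases before. Vcl is at chr14:20929148-20929447 on the plus strand, Fermt2 at chr14:45530016-45530315 and Ldb3 at chr14:34588558-34588857, both on the minus strand.
Vcl: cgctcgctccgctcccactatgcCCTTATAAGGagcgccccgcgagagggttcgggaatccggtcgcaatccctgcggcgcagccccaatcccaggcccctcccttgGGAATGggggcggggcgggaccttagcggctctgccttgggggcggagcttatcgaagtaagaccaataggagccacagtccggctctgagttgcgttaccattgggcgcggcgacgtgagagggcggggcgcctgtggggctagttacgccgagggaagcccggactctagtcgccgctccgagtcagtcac
Fermt2: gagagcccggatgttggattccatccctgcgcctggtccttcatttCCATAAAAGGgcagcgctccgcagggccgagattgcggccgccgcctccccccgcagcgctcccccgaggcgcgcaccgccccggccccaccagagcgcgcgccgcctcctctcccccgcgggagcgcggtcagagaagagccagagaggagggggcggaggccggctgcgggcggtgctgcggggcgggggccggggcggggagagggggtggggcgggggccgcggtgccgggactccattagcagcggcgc
Ldb3: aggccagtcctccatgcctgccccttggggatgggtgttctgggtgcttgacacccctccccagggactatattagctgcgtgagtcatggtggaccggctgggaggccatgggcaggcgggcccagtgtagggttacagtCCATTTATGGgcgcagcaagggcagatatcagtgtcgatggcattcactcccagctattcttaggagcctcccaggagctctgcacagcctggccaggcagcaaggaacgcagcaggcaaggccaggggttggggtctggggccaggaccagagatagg

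The actin cross-linkers and tensins were also lower, 5 of 5 tested (median −0.18), or 4 in the alternative settings that lost Actn1. Of all tested genes 22.7% were lower. With a minimum absolute log2 difference of 0.3, 1 of the 5 was lower, against 10.4% of all tested genes. Tns1, tensin-1, which caps and cross-links actin at mature adhesions, fell most. It had 97.5, 100.3 and 101.6 FPKM in siEzh2 samples, against 135.2, 135.5 and 132.3 FPKM in Control samples. There was no overlap between groups (log2 difference −0.42, SE 0.0341, adjusted p = 0.000272). Tns3, its paralogue, fell by 0.17 (adjusted p = 0.00974), and the ratio of Tns3 to Tns1 was 0.169 ± 0.00805 in siEzh2 samples and 0.143 ± 0.00261 in Control samples.

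Flna, the filamin that also binds beta tails, had 183 ± 7.04 FPKM in siEzh2 samples and 214 ± 2.003 FPKM in Control samples (log2 difference −0.22, adjusted p = 0.00526). Actn4 and Actn1 encode alpha-actinins, which cross-link actin and bind integrin tails. Actn4 fell by 0.18 (adjusted p = 0.00540). Actn1 had 202 ± 4.15 FPKM in siEzh2 samples and 221 ± 2.23 FPKM in Control samples, a fall of 0.13 (adjusted p = 0.0217) that was lost in 6 of 14 alternative settings, among them without any 1 sample other than siEzh2 2 (adjusted p = 0.0503 to 0.0671).

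**Figure D4:**
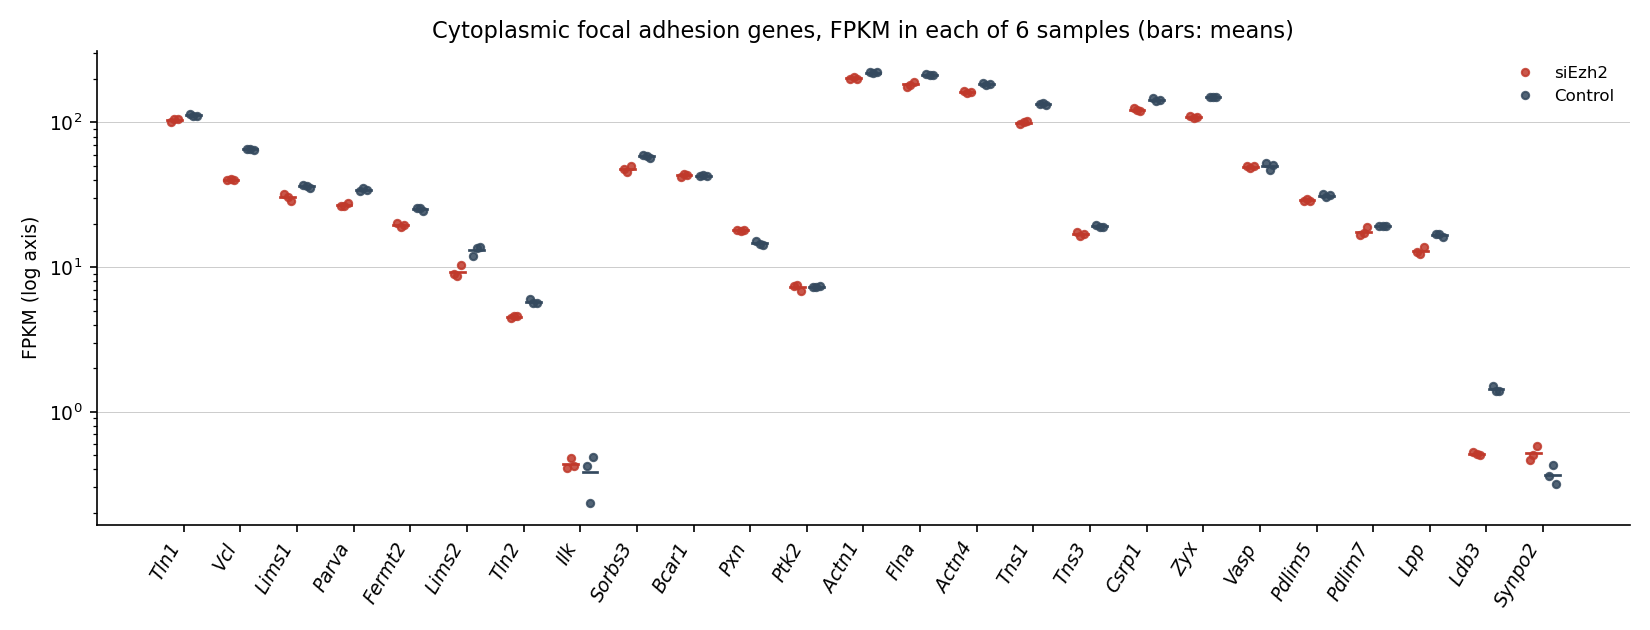
FPKM of the 25 cytoplasmic members in each sample on a log10 axis, siEzh2 beside Control, grouped by role, with the mean of each group. Vcl and Ldb3 show the widest gaps among members that fell, and Pxn is the member that passed the test above Control. Ldb3 passed the filter only through Control samples.

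Of the 4 signalling scaffolds, all tested, 1 rose, 1 fell and 2 did not pass. That is 25% each way, near the 24.1% higher and 22.7% lower among all tested genes. Pxn, paxillin, the adaptor that recruits kinases to young adhesions, had 18.1, 17.8 and 18.1 FPKM in siEzh2 samples, against 15.1, 14.5 and 14.2 FPKM in Control samples. It rose by 0.29 (SE 0.0365, adjusted p = 0.00149), the only cytoplasmic member to do so. Sorbs3, vinexin, which binds vinculin, fell by 0.29 (adjusted p = 0.00323), to 47.7 ± 2.33 FPKM in siEzh2 samples, against 58.5 ± 1.15 FPKM in Control samples. Ptk2, focal adhesion kinase, had 7.26 ± 0.390 FPKM in siEzh2 samples and 7.34 ± 0.0574 FPKM in Control samples, with a log2 difference between −0.12 and 0.09. Bcar1, the p130Cas scaffold, had 43.2 ± 0.928 FPKM in siEzh2 samples and 42.8 ± 0.499 FPKM in Control samples, with a log2 difference between −0.07 and 0.09. For both, these intervals bound the difference and do not show that the groups were equal.

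Of the zyxin and LIM proteins of stress fibres, 4 of 7 tested fell (57.1%) and 3 did not pass (median −0.23). Among all tested genes, 22.7% were lower. Zyx, zyxin, a sensor of tension on stress fibres, had 110.1, 106.6 and 109.1 FPKM in siEzh2 samples, against 149.0, 149.6 and 149.4 FPKM in Control samples. It fell by 0.46 (SE 0.0319, adjusted p = 0.000174), and 4.38% of its exon bases are shared with Epha1 on the opposite strand. Ldb3, a PDZ and LIM protein best known from the Z-disc of striated muscle, had 0.529, 0.513 and 0.499 FPKM in siEzh2 samples, against 1.498, 1.39 and 1.40 FPKM in Control samples. Its fall of 0.68 (SE 0.0347, adjusted p = 7.72e-05) rests on 160 reads against 485. Ldb3 passed the filter only through Control samples, so its limma p-value does not stand free of that selection. For both genes, all siEzh2 samples lay below all Control samples.

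Lpp, a zyxin relative abundant in smooth muscle, had 12.8, 12.4 and 13.8 FPKM in siEzh2 samples, against 16.9, 16.9 and 16.2 FPKM in Control samples. It fell by 0.34 (SE 0.0475, adjusted p = 0.00213). Csrp1, a LIM protein of smooth muscle, fell by 0.23 (adjusted p = 0.00377), to 122 ± 2.66 FPKM in siEzh2 samples, against 144 ± 3.98 FPKM in Control samples. Pdlim5 and Pdlim7, which carry kinases to the actin bundles, missed the threshold although their groups did not overlap. Pdlim5 had 29.0 ± 0.521 FPKM in siEzh2 samples and 31.2 ± 0.827 FPKM in Control samples (log2 difference −0.10, adjusted p = 0.0581). Pdlim7 had 17.5 ± 1.17 FPKM in siEzh2 samples and 19.3 ± 0.0644 FPKM in Control samples (log2 difference −0.13, adjusted p = 0.0788), and it passed without siEzh2 3 (log2 difference −0.18, adjusted p = 0.0155). Vasp, which speeds actin growth at the zyxin site, had 49.5 ± 0.844 FPKM in siEzh2 samples and 50.1 ± 2.55 FPKM in Control samples, with an interval from −0.13 to 0.10. Synpo2, an actin-bundling protein of muscle, had 0.515 ± 0.0629 FPKM in siEzh2 samples and 0.368 ± 0.0557 FPKM in Control samples and was not tested.

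By separation of the samples alone, 5 tested integrins were higher and 3 lower in siEzh2 samples without overlap, and among tested cytoplasmic proteins 1 was higher and 19 lower. Without overlap between groups, 30% of all tested genes were higher and 28.1% lower, or 58.1% in either direction. Replicates of the tested members lay close together, with a coefficient of variation of 0.618 to 16.3% in siEzh2 samples (median 3.01%) and 0.195 to 9.68% in Control samples (median 2.40%).

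The ligands of these receptors moved both ways: of 24 tested matrix proteins, 9 rose (37.5%) and 11 fell (45.8%), with a median of −0.01. Among all tested genes, 24.1% were higher and 22.7% lower. Col3a1, a fibrillar collagen of the vessel wall, had 44.0 ± 0.687 FPKM in siEzh2 samples and 28.9 ± 0.532 FPKM in Control samples (log2 difference 0.59, adjusted p = 9.82e-05). Lamb1, a laminin beta chain, had 66.4 ± 1.27 FPKM in siEzh2 samples and 47.6 ± 0.654 FPKM in Control samples (log2 difference 0.47, adjusted p = 0.000184). The largest falls were of Fbln5 and Postn, matrix proteins that integrins also bind. Fbln5, an elastic fibre protein, had 18.0 ± 0.635 FPKM in siEzh2 samples and 35.5 ± 0.868 FPKM in Control samples (log2 difference −0.94). Postn, periostin, had 13.9 ± 0.640 FPKM in siEzh2 samples and 25.1 ± 0.333 FPKM in Control samples (log2 difference −0.80). Of 13 tested membrane partners of integrins, 7 rose (53.8%) and 4 fell (30.8%), with a median of 0.18. Sdc4, the syndecan that joins Itga5 on fibronectin, had 210 ± 7.16 FPKM in siEzh2 samples and 145 ± 0.673 FPKM in Control samples (log2 difference 0.53). Cavin1, a coat protein of caveolae, also rose by 0.53. The tetraspanins Cd82 and Cd151, which bind laminin-type integrins, fell by 0.53 and 0.27, and 7.04% of the exon bases of Cd151 overlap another gene. Outside the 15 subunits, Itgb7, a beta chain of lymphocytes, was tested and rose, with 1.27 ± 0.284 FPKM in siEzh2 samples and 0.370 ± 0.0682 FPKM in Control samples. It passed the filter only through siEzh2 samples.

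Inside the cell, other adhesion and stress fibre proteins, beyond the 25, fell in 16 of 29 tested cases (55.2%) and rose in 6 (20.7%). Their median was −0.19. Nexn, nexilin, an actin-binding protein of muscle, had 6.37 ± 0.557 FPKM in siEzh2 samples and 10.9 ± 0.833 FPKM in Control samples (log2 difference −0.69). Palld, palladin, a scaffold of stress fibres, had 16.0 ± 0.542 FPKM in siEzh2 samples and 25.9 ± 0.195 FPKM in Control samples (log2 difference −0.66). Tes, a LIM protein that binds zyxin, rose by 0.44. Of 15 tested proteins of integrin activation and trafficking, 5 fell (33.3%) and 10 did not pass (median −0.06). The count that fell was 3 without siEzh2 1, siEzh2 2 or Control 3, and 7 with the trend and robust options of limma on. Rsu1, a partner of the PINCH complex, had 23.6 ± 0.255 FPKM in siEzh2 samples and 29.9 ± 0.630 FPKM in Control samples (log2 difference −0.33), and Kank1, which binds talin, fell by 0.21. Among 30 tested kinases and GTPase regulators 8 rose and 8 fell, or 26.7% each way, near the 24.1% higher and 22.7% lower among all tested genes (median −0.02). Without 1 sample as few as 5 rose or 4 fell, while limma-voom on recovered reads gave 8 higher and 11 lower. Csk and Ptpra, which set the activity of Src, rose by 0.33 and 0.31. Nedd9, a p130Cas relative, and Elmo2, an activator of Rac, fell by 0.42 and 0.22.

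**Figure D5:**
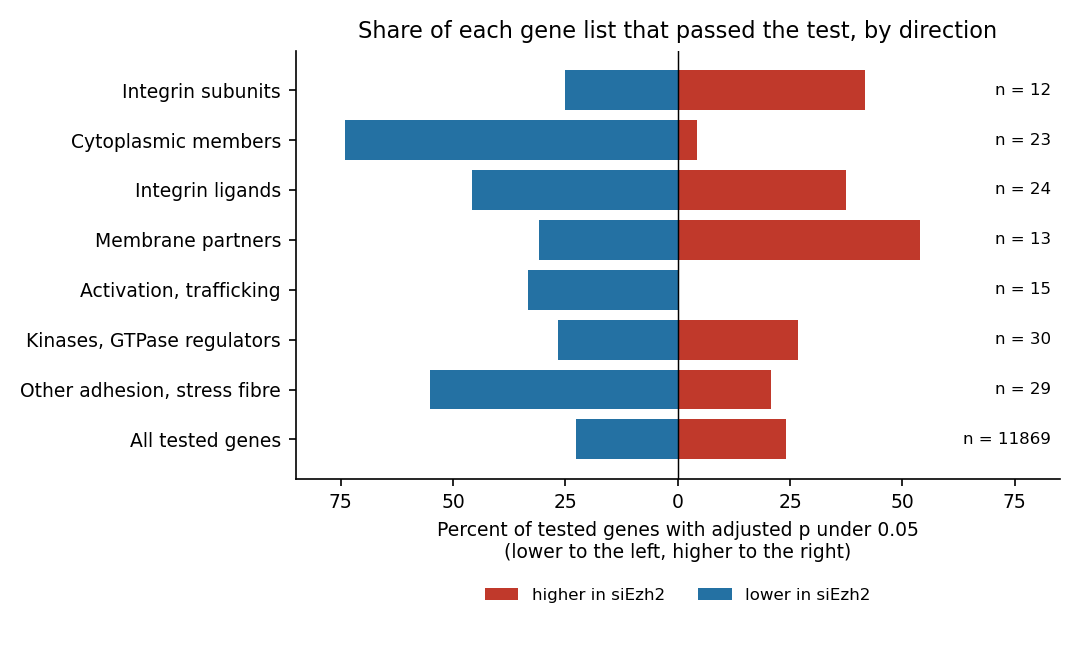
Percent of tested genes in each list that passed the test, lower to the left and higher to the right of 0, with the number tested beside each bar. The cytoplasmic members stand at 73.9% lower and 4.35% higher, the integrins at 25% lower and 41.7% higher, and all 11869 tested genes at 22.7% lower and 24.1% higher.

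Markers of the cells themselves were read beside these counts, and beside the 24.1% higher and 22.7% lower among all tested genes. Of 8 smooth muscle markers 6 were tested and 5 fell, and their summed level was 543 to 581 FPKM in siEzh2 samples and 718 to 748 FPKM in Control samples, nearly all from Acta2. Tagln and Des, which also define smooth muscle, were under 1 FPKM in every sample, and 67.9% of the exon bases of Tagln overlap other genes. Summed macrophage and leukocyte markers were 14.1 to 15.2 FPKM in siEzh2 samples and 17.2 to 20.5 FPKM in Control samples, with Ptprc, Adgre1, Itgam and Tyrobp under 1 FPKM throughout. Of the 4 tested, 2 rose and 2 fell, and without any 1 sample other than Control 1 at most 1 rose. Endothelial markers summed to 3.80 to 4.04 FPKM in siEzh2 samples and 2.43 to 2.65 FPKM in Control samples, with 6 of 8, including Pecam1 and Cdh5, under 1 FPKM throughout, and Kdr, the 1 tested, rose. Fibroblast and adventitial markers summed to 405 to 418 FPKM in siEzh2 samples and 421 to 440 FPKM in Control samples. Of the 7 tested, 1 rose, 3 fell and 3 did not pass (median log2 difference 0.05), and 2 rose without siEzh2 3 or without Control 2. The 13 mitochondrially encoded genes summed to 15861 to 16976 FPKM in siEzh2 samples and 19081 to 19794 FPKM in Control samples, and 8 of them fell. No marker was at 0 in all 6 samples. The part of these differences in the results on integrins and focal adhesion proteins was not tested.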

How the data were processed

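RNA of 3 siEzh2 and 3 Control samples was measured from stranded mRNA libraries, per the labels' protocols. The authors deposited 1 table of FPKM per sample, named so per the file headers. Tools named in the submitters' processing notes are Trimmomatic, HISAT2, HTSeq, Cufflinks, with the build mm10. The sources used here do not state versions, roles, order or the use of strand in counting. Values of genes that overlap another gene, or that have near-identical copies, are uncertain.

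Genes that averaged 1 FPKM or more in either group entered a two-sided limma 3.58.1 fit (R 4.3.3, no covariate, trend and robust off) on log2(FPKM + 1), siEzh2 minus Control. P-values were adjusted by Benjamini-Hochberg over all 11869 tested genes, with a threshold of 0.05. Confidence intervals are 95% and unadjusted, and SDs and ratios are of FPKM. The fit was run on simulated data in which far fewer genes changed than passed the test here. Only genes above the filter were changed there, with the same added spread for all genes. That run does not cover members near or under 1 FPKM. Values in every sample are given for called members with an absolute log2 difference of at least 0.3 and for the most abundant alpha and beta chain. From each other list, the 2 called genes with the largest rise and the 2 with the largest fall are named, apart from 1 gene that is not reported here. Pxn was given per sample after its values had been seen. The members and lists were chosen with earlier results of these data known, and ligand classes and promoter motifs after the members' values were seen.

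Of 27502 gene IDs, 27434 were in GENCODE M21 (mm10), which gave coordinates and exon overlaps. FPKM times exon length moved in whole steps, from which reads were recovered: at least 98.4% of values under 1000 reads were whole within 0.02 of a read. Totals were 16080005 to 18753124 reads per sample. No sample was a copy of another: the chi-square over its degrees of freedom was 2.14 to 3.29 for pairs within a group and 27.9 to 30.0 across groups. Promoters were from RefSeq (GRCm38.p6). Python 3.11.15 did the rest. Alternatives were a pseudocount of 0.1, no filter, a mean of at least 5 FPKM, a minimum log2 difference of 0.3, a replicate block, trend and robust on, quantile normalization, median centring, limma-voom on recovered reads and leaving out each sample.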

Additional observations from a re-analysis of the deposited data

How the results depend on the processing

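With a minimum absolute log2 difference of 0.3, 1395 genes were higher and 1240 lower, against 2866 and 2695 without it. Cytoplasmic proteins then gave 0 higher and 8 lower, against 1 and 17. That 0 is from limma, with 0 also at an unadjusted p under 0.05, and limma-voom on recovered reads gave 1, Pxn. With a filter at a mean of 5 FPKM, 5 integrins were tested, of which 2 were higher and 1 lower. Leaving out each sample in turn gave 2309 to 2516 genes higher and 2156 to 2345 lower, 5 integrins higher and 2 to 3 lower, and 1 cytoplasmic protein higher and 15 to 16 lower. Deviations from the group mean correlated at 0.024, 0.070 and 0.040 between samples with the same replicate number. Between samples with unlike numbers the correlations were −0.062 to 0.022. Such small values from 3 samples a group cannot decide whether the numbers pair the samples. The fit with the replicate number as a block gave 2564 genes higher and 2385 lower, 5 integrins higher and 3 lower, and 1 cytoplasmic protein higher and 15 lower, with Tln1 and Actn1 lost. Pdlim5 passed in 4 of the alternatives and Pdlim7 in 3. Without a filter, Itga7 and Itgb8 passed as well (adjusted p = 0.0182 each). No called member changed direction under the alternatives run. Precision is limited by 3 samples a group, and Itga1, Itga4, Itga7, Itgb8, Ldb3, Ilk and Synpo2 averaged under 1 FPKM over all samples. Among tested members, standard errors were widest for Lims2 (0.0828) and Itga11 (0.0698).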
